A study of Mus musculus with 6 samples.

Results

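The AP-1 and immediate early genes examined here were Jun, Junb, Jund, Fos, Fosb, Fosl2, Atf3, Egr1, Ier2 and Ier3, 10 of the 19057 genes named on the array. They were chosen as a set because they are classically switched on by outside stimuli through CREB and AP-1, factors that work with the coactivators CBP and p300. All 13 of their probes on the array were examined. The question was whether their transcripts differed between ectoderm lacking CBP and p300 and normal lens placode. None of the 10 genes was called lower or higher, where 0.843% of all tested probes were called in either direction. Only 4 of them (Jun, Jund, Egr1 and Ier3) were bright enough to be tested, and in all 4 the KO and WT arrays overlapped. Overlap was the usual case, since only 21.6% of all tested probes were without it.

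Per the labels, the KO arrays held CBP/p300-/- surface ectoderm at E9.5 and the WT arrays held lens placode of wild type embryos at E9.5, both on a mixed FVB and 129 background. The study describes its mutants as conditional, with Cre acting in the presumptive lens ectoderm. Its methods name Pax6-Cre, with floxed embryos lacking Cre as the WT, for microdissected embryos of a later stage than the labels give, so it is not settled here that these were the same embryos. Ectoderm was cut from stained frozen sections by laser microdissection, RNA from 3 embryos went into 1 pool per genotype, and 3 amplifications of a pool were each hybridised to an array of their own. By the labels, arrays of 1 genotype are thus technical replicates and the p-values measure only the spread between amplifications, whereas the study's text describes its sets of both genotypes as biological replicates. Genotype and dissected tissue cannot be told apart. The lens placode is the patch of thickened head ectoderm from which the lens forms.

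AP-1 is a dimer of basic leucine zipper (bZIP) proteins, usually a Jun protein (Jun, Junb, Jund) with a Fos protein (Fos, Fosb, Fosl2), and Atf3 can pair with Jun proteins. Immediate early genes respond to growth factors, stress and wounding without the need for new protein synthesis, and their transcripts are short-lived. CREB, SRF and the ternary complex factors, acting downstream of protein kinase A and the MAP kinases, occupy the promoters of many of them. CBP and p300 are lysine acetyltransferases that bind phosphorylated CREB and also contact Jun and Fos proteins.

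The 10 genes are compact. Their genomic spans ran from 1199 bases (Ier3) to 21369 bases (Fosl2), with a median of 3286 bases against 17146 bases over 21900 protein-coding genes (RefSeq, GRCm38.p6), and 9 of the 10 lay below that median. Jun, Junb, Jund and Ier2 spanned 3187, 1840, 2878 and 1522 bases.

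The 140 bases before the start of 4 of the genes are shown because the set was chosen for its known control through CREB, ATF and AP-1 factors, which bind short motifs of this kind. They come from RefSeq (GRCm38.p6), run 5′ to 3′ on the strand of the gene, and carry in capitals each match to a searched motif. Promoter windows were at hand for 8 of the 10 genes.
Jun, chr4:95052223-95052362, minus strand: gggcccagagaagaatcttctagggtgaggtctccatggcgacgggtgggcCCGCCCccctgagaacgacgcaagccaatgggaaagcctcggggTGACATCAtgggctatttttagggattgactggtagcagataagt
Fos, chr12:85473750-85473889, plus strand: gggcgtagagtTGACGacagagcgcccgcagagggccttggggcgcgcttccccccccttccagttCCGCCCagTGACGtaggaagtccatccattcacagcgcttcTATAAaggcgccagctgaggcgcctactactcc
Jund, chr8:70697599-70697738, plus strand: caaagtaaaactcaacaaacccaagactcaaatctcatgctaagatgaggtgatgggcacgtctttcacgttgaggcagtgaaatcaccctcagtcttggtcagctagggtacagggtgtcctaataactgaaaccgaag
Ier3, chr17:35821573-35821712, plus strand: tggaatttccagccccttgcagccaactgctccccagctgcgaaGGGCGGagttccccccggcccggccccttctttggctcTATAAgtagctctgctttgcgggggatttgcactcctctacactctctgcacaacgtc

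The motifs searched in the windows of 300 bases were the core of the cyclic AMP response element (CRE) TGACG, the full CRE TGACGTCA (which contains that core), the AP-1 site TGAGTCA, the variant TGACATCA known from the Jun promoter and the GC box GGGCGG, all on both strands, and the TATA box letters TATAA on the strand of the gene. Positions count back from the base before the start, which is -1. Jun held TGACATCA at -45 and a GC box at -89. Fos held TGACG at -129 and -66, a GC box at -74 and TATAA at -33, and its CRE close to the start is known for calcium and cyclic AMP responses. Ier3, also called IEX-1, held a GC box at -96 and TATAA at -58, and Jund held none of the motifs. Among the genes not printed, TGACG lay at -106 in Junb, at -60 in Fosb and at -7 (minus strand) in Atf3. GC boxes lay at -75 in Fosl2, at -235, -230 and -46 in Fosb and at 5 positions from -210 to -71 in Atf3, and Junb held TATAA from the start base, 1. The shares of all 32851 windows with a match were 20.8% for TGACG, 1.79% for TGACGTCA, 5.2% for TGAGTCA, 3.62% for TGACATCA, 35.7% for GGGCGG and 17.5% for TATAA. The full CRE and the AP-1 site had no match in the 8 member windows. A match describes letters only, and binding was not measured on these arrays.

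A probe was taken as above background on an array at a detection p-value under 0.01, and tested if it was above background on all 3 arrays of at least 1 genotype. Values are log2 intensities after background correction and quantile normalization. Of the 78 readings of the 13 probes, 24 were above background: 3, 4 and 5 probes on KO replicates 1, 2 and 3, and 5, 4 and 3 probes on WT replicates 1, 2 and 3. Of the 13 probes, 4 were tested (over all 45281 probes, 28.0% were), 3 were above background on only 1 or 2 arrays and 6 on none. On the array as a whole, 49.3% of probes were above background on no array. Fosb, Atf3 and Ier2 had no reading above background.

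**Figure D1:**
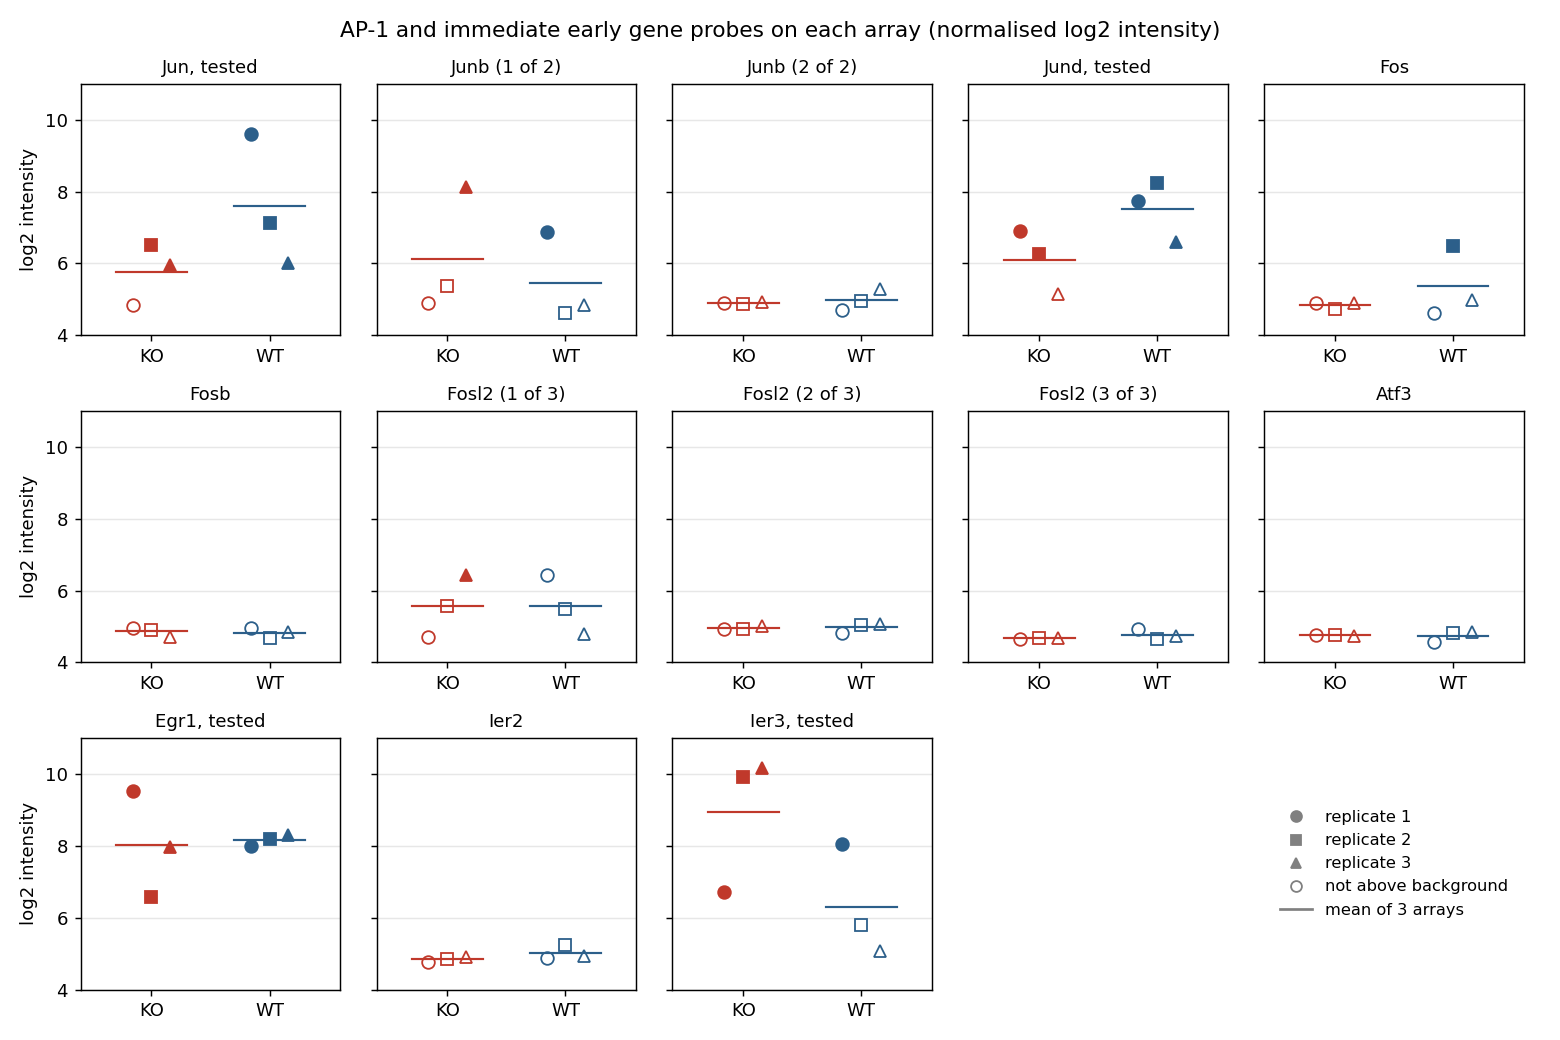
Normalised log2 intensity (y axis) of each of the 13 probes on the 3 KO and 3 WT arrays. Symbols mark the replicate, hollow symbols a reading not above background, and lines the mean of 3 arrays; the groups overlap for all 4 tested genes, and most other readings are hollow.

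Over the whole array, 107 of the 12697 tested probes were called, 0.843%, by limma at a Benjamini-Hochberg adjusted p under 0.05 and a difference of at least 1 on the log2 scale in either direction. Of these, 54 (0.425%) were lower in KO and 53 (0.417%) higher. Of the 4 tested member probes, 0 were called lower and 0 higher. At an unadjusted p under 0.05, 0 of the 4 were lower and 0 higher, against 6.61% and 8.58% of all tested probes (15.2% in either direction). The 3 KO arrays lay entirely below the 3 WT arrays for 0 of the 4 and entirely above them for 0, against 10.2% and 11.3% of all tested probes (21.6% together). Log2 fold changes, given as KO minus WT, were negative for 3 of the 4 and for 47.0% of all tested probes. Their median was -0.78, against 0.05 over all tested probes, and -0.09 with the dim probes of the other members counted in. With 4 probes a median follows single genes. Jun and Jund passed the filter through the WT arrays alone, and Ier3 through the KO arrays alone. Their signs, and the median with them, can thus follow in part from the filter. Only Egr1 passed it in both genotypes.

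Jun, the core DNA-binding partner of AP-1, lies at chr4:95049036-95052222. Its probe read 4.83, 6.53 and 5.95 on the KO arrays, against 9.61, 7.14 and 6.02 on the WT arrays. WT replicate 1 stood highest by a wide margin, while WT replicate 3 read below KO replicate 2. The probe was above background on 2 KO and 3 WT arrays. The scanner intensities before normalization were 86.1, 171 and 143 in KO, against 935, 183 and 110 in WT, so the high reading was present in the raw data. The standard error over the beads was 17.5 for the intensity of 935 and 4.19 for that of 110.

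Jun averaged 5.77 ± 0.86 in KO and 7.59 ± 1.84 in WT (SD, n = 3 arrays each), a log2 fold change of -1.82 ± 0.97 (SE) with a 95% interval of -4.18 to 0.55, or 3.52-fold lower in KO. It did not pass the test (limma, adjusted p = 0.455; two-sided exact permutation p = 0.2, where the smallest that 3 against 3 arrays can give is 0.1). Without WT replicate 1 the log2 fold change shrank to -0.83. That array also had the highest median raw intensity (141, against 85.6 to 95.5 on the others) and the fewest probes above background (12212, against 14759 to 17195), and the part of these in the Jun reading was not tested. The replicate SD of Jun was at percentile 92.6 among 2684 tested probes of like brightness. The study reports lower expression of c-Jun, the product of Jun, in its mutant ectoderm. Its array analysis used GenomeStudio with another normalization and other thresholds, so that statement and the limma result here rest on unlike tests.

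Junb, which dimerises like Jun but is often a weaker activator, had 2 probes, neither of which could be tested. The probe designed on a cDNA clone had raw intensities of 88.9, 108 and 369 in KO, against 236, 68.6 and 81.8 in WT, and was above background on KO replicate 3 and WT replicate 1 only. One bright array in each genotype thus carried all of its signal. The other probe, designed on the reference mRNA, lay between 83.8 and 105 on all 6 arrays and was above background on none. Junb lies at chr8:84976909-84978748.

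Jund, the Jun protein that is made most steadily in resting cells, lies at chr8:70697739-70700616. It read 6.89, 6.27 and 5.16 on the KO arrays, against 7.73, 8.24 and 6.59 on the WT arrays. A single KO array, replicate 1, read above the lowest WT array, replicate 3, and the other 2 KO arrays lay below every WT array. Raw intensities were 205, 154 and 102 in KO, against 335, 336 and 137 in WT, and KO replicate 3 was not above background.

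Jund averaged 6.10 ± 0.88 in KO and 7.52 ± 0.84 in WT (SD, n = 3 each). The log2 fold change was -1.42 ± 0.61 (SE), with a 95% interval of -2.91 to 0.07 (limma, adjusted p = 0.350; exact permutation p = 0.2). It did not pass the test, and without KO replicate 3 it was -0.96. Its spread was ordinary for its brightness, at percentile 51.0 among 2857 probes.

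Fos, the prototype immediate early gene, lies at chr12:85473890-85477274. Its raw intensities were 89.6, 77.4 and 88.8 in KO, against 94.7, 135 and 86.5 in WT. WT replicate 2 alone was above background (detection p-value 0.00107, 42 beads), and on the remaining arrays Fos was not well above background. Fosl2, a Fos protein also known as Fra-2, had 3 probes, and KO replicate 3 gave the only reading above background among them, an intensity of 172 on its brightest probe. That probe read 78.4, 118 and 172 in KO, against 209, 96.5 and 79.7 in WT, where the higher WT reading had a detection p-value of 0.0203 on an array with a raised background. No fold was taken for either gene.

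Fosb, whose protein resembles Fos, had raw intensities of 93.2, 85.4 and 79.1 in KO, against 136, 72.9 and 82.0 in WT. Atf3, a stress-induced member of the ATF family that can repress its own promoter, read 81.7, 79.2 and 81.0 in KO, against 86.0, 79.3 and 82.6 in WT. Ier2, a small nuclear protein, read 82.8, 82.6 and 89.3 in KO, against 129, 90.7 and 85.0 in WT. None of these readings was above background. The raised values on WT replicate 1 fell beside a median of 124 over undetected probes on that array, against 79.5 to 85.6 on the others. Fosb lies at chr7:19302696-19310118, Atf3 at chr1:191170296-191183333, Ier2 at chr8:84661331-84662852 and Fosl2 at chr5:32136472-32157840.

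Egr1, a zinc finger factor induced through SRF and the ternary complex factors, was the only member above background on all 6 arrays. It read 9.53, 6.57 and 7.98 on the KO arrays, against 7.99, 8.20 and 8.31 on the WT arrays. The WT arrays lay within 0.33 of each other, whereas the KO arrays spanned 2.97 and enclosed them. In raw intensity the KO arrays read 804, 173 and 340, against 379, 326 and 364 on the WT arrays.

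Egr1 averaged 8.03 ± 1.48 in KO and 8.17 ± 0.17 in WT (SD, n = 3 each), a log2 fold change of -0.14 ± 0.73 (SE; limma, adjusted p = 0.955; exact permutation p = 0.7). The 95% interval, -1.92 to 1.64, left room for a difference of over 3-fold in each direction. The sign turned with the KO arrays: it was 0.60 without KO replicate 2 and -0.91 without KO replicate 1.

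Ier3, a stress-responsive protein that is known to affect cell survival, lies at chr17:35821713-35822911. It was the one tested member with a positive log2 fold change. It read 6.71, 9.90 and 10.17 on the KO arrays, against 8.06, 5.79 and 5.06 on the WT arrays. KO replicates 2 and 3 were far above all other arrays, while KO replicate 1 was below WT replicate 1. Raw intensities were 191, 982 and 1213 in KO, against 393, 105 and 88.0 in WT. The probe was above background on 3 KO arrays and on WT replicate 1 only, so that its WT mean includes background readings.

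Ier3 averaged 8.93 ± 1.93 in KO and 6.30 ± 1.57 in WT (SD, n = 3 each). The log2 fold change was 2.62 ± 1.18 (SE), or 6.17-fold higher in KO, with a 95% interval of -0.24 to 5.49. It did not pass the test (limma, adjusted p = 0.368; exact permutation p = 0.2). Its replicate SD stood at percentile 96.6 among 3101 probes of like brightness and at percentile 98.4 of all tested probes. With 1 array left out, the log2 fold change ran from 1.95 without WT replicate 3 to 3.76 without KO replicate 1.

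**Figure D2:**
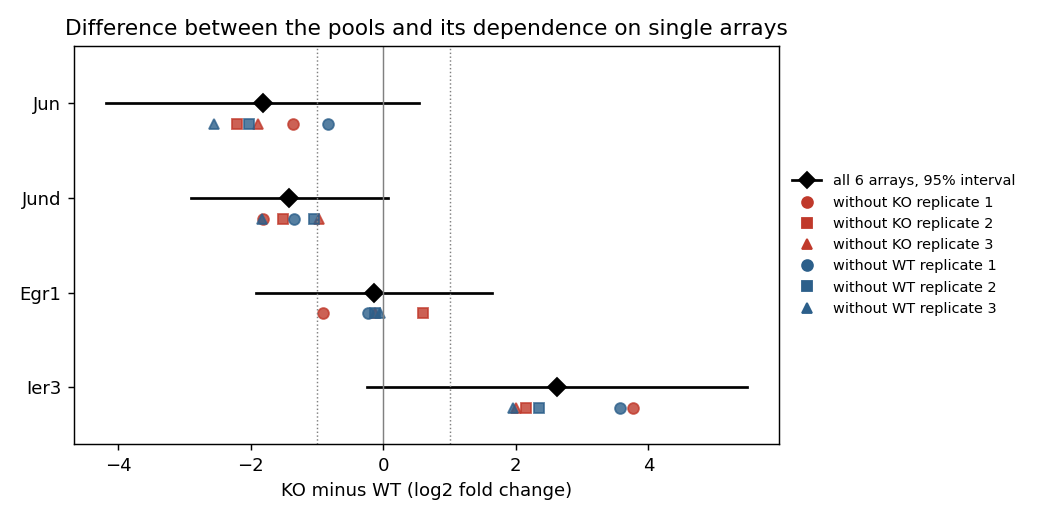
Log2 fold change, KO minus WT (x axis), of the 4 tested members. Diamonds are the fit to all 6 arrays with limma's 95% interval, smaller symbols below each are the fits with the named array left out, and dotted lines mark the fold minimum of the call; all 4 intervals include 0.

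The 4 tested members did not share a pattern over the 6 arrays. By the labels the arrays hold 2 pools, and they are too few for more than a description. Pearson correlations of their log2 values were 0.52 for Jun and Jund, 0.22 for Jund and Egr1, 0.09 for Jun and Ier3, -0.36 for Jun and Egr1, -0.58 for Egr1 and Ier3 and -0.62 for Jund and Ier3. By the same measure the genes most like Jun were Adh5 (0.988), Mrpl34 (0.974) and Trpm3 (0.969). Those most like Jund were Pdia4 (0.998), Nf2 (0.991) and Zbtb44 (0.987). Pdf (0.994), Pdp2 (0.973) and Gga2 (0.967) were most like Egr1, and Tpra1 (0.994), Cmip (0.989) and Ercc8 (0.989) most like Ier3. With 6 values per gene such coefficients are common: 25 to 73 genes of the 7141 tested exceeded 0.9 for each member.

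The coactivator genes themselves gave no check of the genotype. Crebbp, which encodes CBP, read 7.17, 8.47 and 6.75 on the KO arrays, against 7.20, 7.60 and 7.01 on the WT arrays. Ep300, which encodes p300, read 5.70, 6.49 and 9.94 on the KO arrays, against 6.94, 7.84 and 6.81 on the WT arrays. Where the probes lie relative to the deleted exons was not examined, and a transcript can outlast the loss of an exon.

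The other genes of the pathway were set beside the members, each gene by its brightest tested probe. Over all 7141 tested genes, 47.7% were negative, the median log2 fold change was 0.03 and 13.9% had an unadjusted p under 0.05. The 6 lists that follow held 96 tested entries, of which 0 were called. Over all tested probes 0.843% were called, so 0 of 96 is near that share.

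Of 22 other AP-1 and related bZIP factors on the array, 11 were tested, 3 with negative and 8 with positive values (median 0.26). Batf, Batf2, Batf3, Mafk, Atf6, Cebpb and Bach2 were at background on every array. Jdp2, which pairs with Jun proteins and represses, read -1.07 ± 0.45 (SE; limma, adjusted p = 0.334). Maff, a small Maf protein, read 6.19, 6.83 and 7.55 on the KO arrays and was at background on the 3 WT arrays, at least 1.61-fold higher in KO with an adjusted p of 0.210 that missed the threshold. Atf5 read 0.86 ± 0.36 (adjusted p = 0.341), Cebpd 0.96 ± 0.87, Ddit3 -0.62 ± 1.39 and Atf6b -0.08. Ddit3 was above background on 2 WT arrays. The tested factors of this list thus lay on both sides of 0. Jun and Jund, the AP-1 members tested, were both negative, and neither passed the test. Both entered the fit through the WT arrays alone, which favours negative values, so their shared sign is not a pattern of AP-1.

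Of 51 other immediate early genes, 22 were tested, 14 with negative and 8 with positive values (median -0.30, or 0.00 with dim probes counted in), and 3 on each side had an unadjusted p under 0.05. As with Fosb, Atf3 and Ier2, 11 were at background on every array: Egr2, Egr3, Egr4, Nr4a1, Nr4a3, Klf2, Arc, Ptgs2, Gem, Rgs2 and Pim1. Phlda1, a pleckstrin homology protein induced by growth factors, read 8.58, 8.28 and 6.66 on the KO arrays, against 10.84, 10.68 and 10.66 on the WT arrays. The groups did not overlap, but the log2 fold change of -2.89 ± 0.54 missed the threshold (limma, adjusted p = 0.0781). Ccn2, also called CTGF, read -1.43 ± 0.71 (adjusted p = 0.417) and Nfkbia, the inhibitor of NF-kappaB, -1.42 ± 0.58 (adjusted p = 0.329). In the other direction Ccn1, also called CYR61, read 1.87 ± 0.77 (adjusted p = 0.329) and Plk2, a polo-like kinase, 1.17 ± 0.44 (adjusted p = 0.281). Ccn1 and Plk2 were each above background on 2 WT arrays, so their WT means include background readings. Srf, the factor through which Egr1 and Fos are induced, read 11.46 in KO and 11.46 in WT.

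Of 19 SRF, TCF and CREB factors with their cofactors, 11 were tested, 6 with negative and 5 with positive values (median -0.00). Creb3, a membrane-bound relative of CREB, read 8.23, 8.17 and 7.31 on the KO arrays, against 10.04, 10.59 and 10.21 on the WT arrays, a log2 fold change of -2.37 ± 0.36 that missed the threshold (limma, adjusted p = 0.0532), and its other probe read 0.24. Mrtfb, a coactivator of SRF, was at background on the 3 WT arrays and at least 1.92-fold higher in KO, where it also missed the threshold (adjusted p = 0.0711). Creb3l2, of the same family as Creb3, read 3.20 ± 0.73 (adjusted p = 0.119), with 1 WT array above background. Elk3 read -1.92 ± 1.23, with 2 WT arrays above background, and -0.54 without WT replicate 2. Cited2 read -1.05 ± 0.73 (its other probes -0.33 and -0.31) and Elk4 0.27 ± 0.68, with 1 WT array above background. Relatives of CREB and factors of the SRF branch both had values on each side of 0.

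Of 34 MAP kinase and upstream signalling genes, 28 were tested, 12 with negative and 16 with positive values (median 0.12). Map2k5, the kinase above ERK5, read 9.60, 8.03 and 8.35 on the KO arrays, against 5.79, 5.34 and 5.39 on the WT arrays, none of them above background. It was at least 5.65-fold higher in KO and missed the threshold (limma, adjusted p = 0.0505). Mapk13 read 1.84 ± 0.67 and Mapk11 1.32 ± 1.07, while Prkar2b, a regulatory subunit of protein kinase A, read -1.10 ± 0.32 (adjusted p = 0.189), Sos1 -0.99 ± 0.64 and Braf -0.90 ± 0.34. The other tested probe of Mapk13 read 0.84, that of Sos1 0.18 and that of Braf -1.02. Mapk13 was above background on 1 WT array, Mapk11 on 2 WT arrays and Sos1 on 2 KO arrays, so those means include background readings.

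Of 31 textbook AP-1 target genes, 14 were tested, 7 with negative and 7 with positive values (median 0.04). Ccnd1, which encodes cyclin D1, read 11.82, 12.25 and 11.56 on the KO arrays, against 13.15, 12.78 and 12.98 on the WT arrays (-1.09 ± 0.29; limma, adjusted p = 0.165), and its other probes -2.25 and -1.08. Its arrays did not overlap, unlike those of Jun. Krt8 read -0.88 ± 0.33, Mt2 -0.79 ± 0.43, Vim 1.19 ± 0.50, Bcl2l1 0.91 ± 0.54 and Mmp14 0.88 ± 0.43, none of which passed the test. Vim was above background on 1 WT array and Mt2 on 2 KO arrays.

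**Figure D3:**
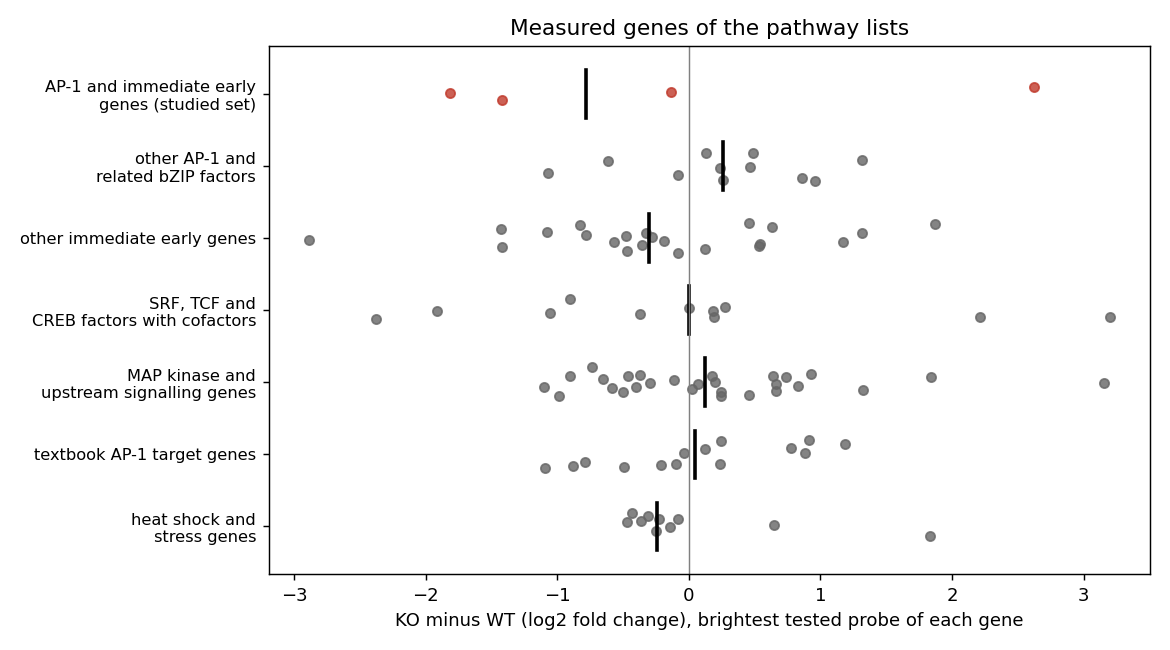
Log2 fold change, KO minus WT (x axis), of each tested gene of 7 lists, 1 point per gene by its brightest tested probe and a bar at the median of each list. Values of the 4 tested members run from -1.82 to 2.62, and each of the other lists also has genes on both sides of 0.

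Heat shock and stress genes were read beside the members, since both kinds of gene are known to respond to stress on a tissue. Of 16 on the array, 10 were tested, 8 with negative and 2 with positive values (median -0.24). The inducible Hspa1a and Hspa1b, and Dnaja1, were at background on every array. Hspd1 read -0.47 ± 0.24 (its other tested probe 0.04), Hspa5 -0.43 ± 0.24, Hspe1 -0.36 ± 0.24, Hsf2 0.65 ± 0.38 and Txnip 1.83 ± 0.60 (limma, adjusted p = 0.234 to 0.555). Summed over the list on the linear scale, where the brightest genes weigh most, levels ran from 29285 to 31209 in KO and from 33855 to 35644 in WT. The part of these genes in the readings of Jun, Jund and Ier3 was not tested.

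Markers of the cell types that the dissected tissue could hold were read beside the members. Of 9 tested lens placode genes, 8 were negative (median -1.90). Crygd, Foxe3, Mab21l1 and Pitx3 were called lower, each losing its call without any 1 of the 6 arrays. Mab21l1 was called by its dimmer probe, while its brighter probe read -1.90 and missed the threshold (limma, adjusted p = 0.0569). Summed levels, in which the brightest genes weigh most, were 4348 to 5247 in KO and 8290 to 9135 in WT. Of 11 tested surface ectoderm genes, 8 were negative (KO 15314 to 17350, WT 20961 to 23188). All 5 tested blood genes were positive (KO 13642 to 14191, WT 5646 to 7433), with Gata1 at background. Of 11 tested mesenchyme and neural crest genes, 7 were positive and 4 negative, 4 on the positive and 3 on the negative side had an unadjusted p under 0.05, and Alx4 was called higher, a call also lost without any 1 array (KO 2737 to 3276, WT 2610 to 4617), with Pdgfrb, Twist1 and Sox10 at background. Of 10 endothelial genes only Cldn5 was tested (KO 246 to 782, WT 24.4 to 80.3), with Pecam1, Cdh5 and Kdr at background. The optic vesicle and neural list had 3 tested genes (KO 1121 to 2088, WT 736 to 4566), and of 10 macrophage genes 0 were tested, with Csf1r and Ptprc at background. In pooled tissue, fewer cells of a type and less RNA per cell cannot be told apart, and the part of these markers in the values of Jun, Jund and Ier3 was not tested.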

How the data were processed

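The authors deposited, for each of the 6 Illumina MouseWG-6 v2 arrays (all on 1 BeadChip), the mean bead intensity of 45281 probes on a linear scale, not normalized between arrays, with a detection p-value against negative control beads. They also deposited the count of beads behind each value (median 43 to 44) and the standard error of the bead signal. A second deposited table held intensity values processed by the authors with GenomeStudio, whose version is not given in the sources used here. They were background-subtracted on a linear scale. Its columns ranked the probes as the scanner column of the same array did (Spearman correlation 1), and it served as an alternative.

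The intensity was corrected for background in limma 3.58.1 (R 4.3.3) by normexp with an offset of 16, using the detection p-values to infer the negative controls. Quantile normalization and the log2 scale came next. A probe entered the fit if its detection p-value was under 0.01 on each array of 1 genotype or of both (12697 probes). A mean per genotype was fitted (lmFit, eBayes; 4 residual and 2.15 prior degrees of freedom), with Benjamini-Hochberg adjustment over the kept probes. Where a genotype had no reading above background, a bound ("at least") compares the mean log2 value of the other genotype with a floor averaged over the dim arrays. The floor of an array is its dimmest detected probe, or the probe itself where brighter, and it depends on the background correction. The fit was also run on simulated log2 values with known changes. The background correction, normalization, filter and bound were not tested in that way. The number of arrays limits the precision.

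Symbols came from the platform annotation (34885 probes with 1 symbol, 18 with several, 10378 with none; 34807 matched by Entrez identifier). The members and lists were chosen with earlier results of these data known. Genes were named by rule: every member with every probe; from each other list all called genes, otherwise up to 3 most negative and 3 most positive by the brightest kept probe; and the 3 genes most correlated with each tested member. Crebbp, Ep300, Srf and genes at background on every array were added after their values were seen. Alternatives covered background, normalization, filter, input, array weights, moderation, fold minimum, a replicate block and each array left out. The study describes its array experiment for older embryos than the labels give, and the labels were followed.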

Additional observations from a re-analysis of the deposited data

How the results depend on the processing

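In every setting run, 0 member probes were called lower and 0 higher. Over all probes, 54 were lower and 53 higher. These counts were 17 and 19 without background correction and 29 and 63 with median scaling. They were 2 and 0 for probes above background on all 6 arrays, and 21 and 24 at a detection p-value under 0.05. Lower and higher calls were 36 and 34 with cyclic loess and 36 and 30 with no filter on dim probes. With the deposited processed values they were 68 and 102. With any 1 array left out, 0 to 0 probes were called lower and 0 to 0 higher by limma, against 675 to 1222 lower and 1033 to 1188 higher at an unadjusted p under 0.05. With the replicate number as a block, 0 and 0 were called (772 lower and 1042 higher unadjusted). Deviations of same-numbered arrays correlated at -0.03 to 0.00 and those of other pairs at -0.01 to 0.02. The numbers thus gave no sign of pairing KO with WT arrays. Such values cannot tell amplifications of a pool from separate embryos. The causes were not tested.

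Over the settings other than a left-out array, Jun read -2.05 to -1.22, Jund -1.56 to -0.87, Egr1 -0.21 to -0.02 and Ier3 1.90 to 2.86. The lowest adjusted p in any setting was 0.274 for Jun, 0.246 for Jund, 0.551 for Egr1 and 0.225 for Ier3. With 1 array left out, Jun read -2.55 to -0.83, Jund -1.83 to -0.96, Ier3 1.95 to 3.76 and Egr1 -0.91 to 0.60. Signs also turned for Ddit3 (-1.99 to 0.82), Atf6b (-0.27 to 0.0501) and Elk4 (-0.30 to 0.75). Phlda1 passed with robust and trended moderation (adjusted p = 0.0416), as did Creb3 (0.0392), Map2k5 (0.0496) and Ccnd1 (0.0335). Creb3, Mrtfb and Map2k5 passed with the processed values (0.0439, 0.0496 and 0.0435), and Map2k5 with median scaling (0.0340). Calls of marker genes were lost in 13 of 15 settings for Alx4, 11 of 15 for Foxe3, 11 of 16 for Mab21l1, 9 of 15 for Crygd and 7 of 15 for Pitx3, among them every left-out array, with adjusted p-values of up to 0.207.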
